A study of Mus musculus with 12 samples.

Results

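The genes described here are 10 members and partners of the ATF2 and CREB family of transcription factors, the family to which ATF7 belongs. They are Atf7 itself, its closest relatives Atf2 and Creb5, the ATF7-binding cofactor Atf7ip, the CREB subfamily Creb1, Atf1 and Crem, and the AP-1 genes Atf3, Jund and Fos. They were chosen by name, 10 of 24888 entries, and each stands at 1 locus. All 10 were found in all 12 libraries of cultured mouse adipocytes, which fall into 6 groups of 2. KO-labelled beige cultures came from inguinal white fat preadipocytes of C57BL/6 background with the genotype ATF7KO and were treated with rosiglitazone, an agonist of the fat cell receptor PPARγ. WT beige cultures had the same origin and treatment and the WT genotype. KO-labelled white and WT white cultures were made from the same kinds of preadipocytes without rosiglitazone. The last 2 groups were C3H10T1/2, a mouse mesenchymal cell line that can form adipocytes, either overexpressing ATF7 or as its control. Both received rosiglitazone, so every C3H10T1/2 library and every beige library carries that treatment. The labels do not give the deleted part of the gene, the overexpression construct, the age or number of mice, or whether the line was 1 clone.

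ATF7, ATF2 and CREB5 form 1 subfamily of basic leucine zipper (bZIP) proteins. They bind DNA as dimers with each other or with JUN proteins, and stress kinases of the p38 and JNK families phosphorylate their amino-terminal parts. CREB1, ATF1 and CREM form a neighbouring subfamily that is switched on by cAMP through protein kinase A, the route by which noradrenaline activates thermogenic genes in brown and beige fat. ATF7 is also known to recruit histone H3K9 methyltransferases to silent genes, and ATF7IP links it to the methyltransferase SETDB1.

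The promoters of the genes whose levels the results turn on are shown because they hold, or lack, the letters these proteins are known to bind. RefSeq (GRCm38.p6) gave 10 promoter windows for 9 of the 10 genes, from 250 bases before the start of the gene to 50 bases into it. Each window was searched for the full cAMP response element (CRE) TGACGTCA, for its short form TGACG or CGTCA, and for the AP-1 site TGACTCA or TGAGTCA, on both strands. The short form also lies within the full CRE. Capitals mark a match, and windows are written 5′ to 3′ on the strand of the gene.
Atf7, chr15:102625415-102625714, minus strand, no match: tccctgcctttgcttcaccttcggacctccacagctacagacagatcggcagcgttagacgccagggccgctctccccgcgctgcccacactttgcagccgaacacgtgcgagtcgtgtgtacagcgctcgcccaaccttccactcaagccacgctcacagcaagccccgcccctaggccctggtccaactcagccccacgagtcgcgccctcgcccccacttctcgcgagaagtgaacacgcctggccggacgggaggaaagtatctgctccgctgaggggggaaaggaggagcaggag
Atf2, chr2:73892590-73892889, minus strand, no match: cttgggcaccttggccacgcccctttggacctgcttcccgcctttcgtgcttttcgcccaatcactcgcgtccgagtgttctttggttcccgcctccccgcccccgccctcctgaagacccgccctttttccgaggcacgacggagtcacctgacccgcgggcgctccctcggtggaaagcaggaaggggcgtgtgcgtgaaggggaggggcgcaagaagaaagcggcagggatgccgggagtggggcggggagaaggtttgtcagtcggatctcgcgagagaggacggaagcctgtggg
Creb5, chr6:53287053-53287352, plus strand, full CRE: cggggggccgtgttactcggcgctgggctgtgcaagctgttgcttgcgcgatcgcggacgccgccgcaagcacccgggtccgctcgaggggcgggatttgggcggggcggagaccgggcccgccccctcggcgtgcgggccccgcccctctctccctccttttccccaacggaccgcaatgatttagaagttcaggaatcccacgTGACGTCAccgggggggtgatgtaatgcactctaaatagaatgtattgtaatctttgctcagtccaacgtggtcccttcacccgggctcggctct
Atf3, chr1:191183284-191183583, minus strand, short form: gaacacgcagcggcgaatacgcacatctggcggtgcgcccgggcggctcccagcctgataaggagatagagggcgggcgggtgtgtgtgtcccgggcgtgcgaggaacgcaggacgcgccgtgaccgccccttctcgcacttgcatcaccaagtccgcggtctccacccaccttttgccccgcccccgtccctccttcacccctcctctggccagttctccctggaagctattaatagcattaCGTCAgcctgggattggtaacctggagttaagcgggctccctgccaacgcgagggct
Fos, chr12:85473640-85473939, plus strand, 2 short forms: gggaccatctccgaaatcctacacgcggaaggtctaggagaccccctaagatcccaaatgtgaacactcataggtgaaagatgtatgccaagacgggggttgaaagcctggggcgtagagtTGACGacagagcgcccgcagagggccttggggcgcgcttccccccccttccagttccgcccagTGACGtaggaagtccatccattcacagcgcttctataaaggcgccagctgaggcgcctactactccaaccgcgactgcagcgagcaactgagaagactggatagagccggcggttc

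The full CRE of Creb5 lay 45 to 38 bases before the start of the gene. This window belongs to the upstream start of Creb5, which lies outside the deposited locus (chromosome 6, 53573374 to 53695832). At its internal start, Creb5 had the AP-1 site TGACTCA 45 to 39 bases before the start. Fos had the short form TGACG at 129 to 125 and at 66 to 62 bases before its start, Atf3 had CGTCA at 7 to 3 bases before, and Atf1 had TGACG at 90 to 86 bases before. The windows of Atf7, Atf2, Atf7ip, Creb1 and Jund held none of the 3 motifs. Of 32851 RefSeq promoter windows of this length, 1.79% held the full CRE, 20.81% the short form and 5.2% the AP-1 site. A match is a string of letters and not a bound site.

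Levels are FPKM, the authors' deposited values, in which fragments are divided by gene length and library size. A library had 9844 to 10877 genes at 1 FPKM or more and a summed FPKM of 225536 to 272371, and read depth is unknown. Pearson's r between the replicates of a group, across genes on the log2 scale, was 0.984 to 0.992. Fold changes are differences of log2(FPKM + 1) from limma, which understate the change of low genes, and a gene was called at a Benjamini-Hochberg adjusted p under 0.05 over all genes tested. Whether the replicates came from separate cultures or animals is not in the labels, so p-values reflect the spread of these samples alone, which may be technical. Adipocyte markers were present everywhere: all 6 reached 1 FPKM in each group. Their summed level was nevertheless higher in beige than in white cultures, as given below. The summed level of 6 beige and brown markers was 607 to 621 FPKM in KO-labelled beige, 374 to 407 in WT beige, 23.8 to 26.5 in KO-labelled white and 30.1 to 31.4 FPKM in WT white libraries, and Ucp1 was listed at 0 in all 4 white libraries. The 5 lymphoid markers summed to at most 0.244 FPKM in any library. The housekeeping gene Tbp stood between 2.15 and 3.36 FPKM over the 12 libraries. Actb, the other housekeeping gene looked at, differed between cultures. It stood at 820 to 907 FPKM in white, 485 to 546 in primary beige and 335 to 377 FPKM in C3H10T1/2 libraries.

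**Figure D1:**
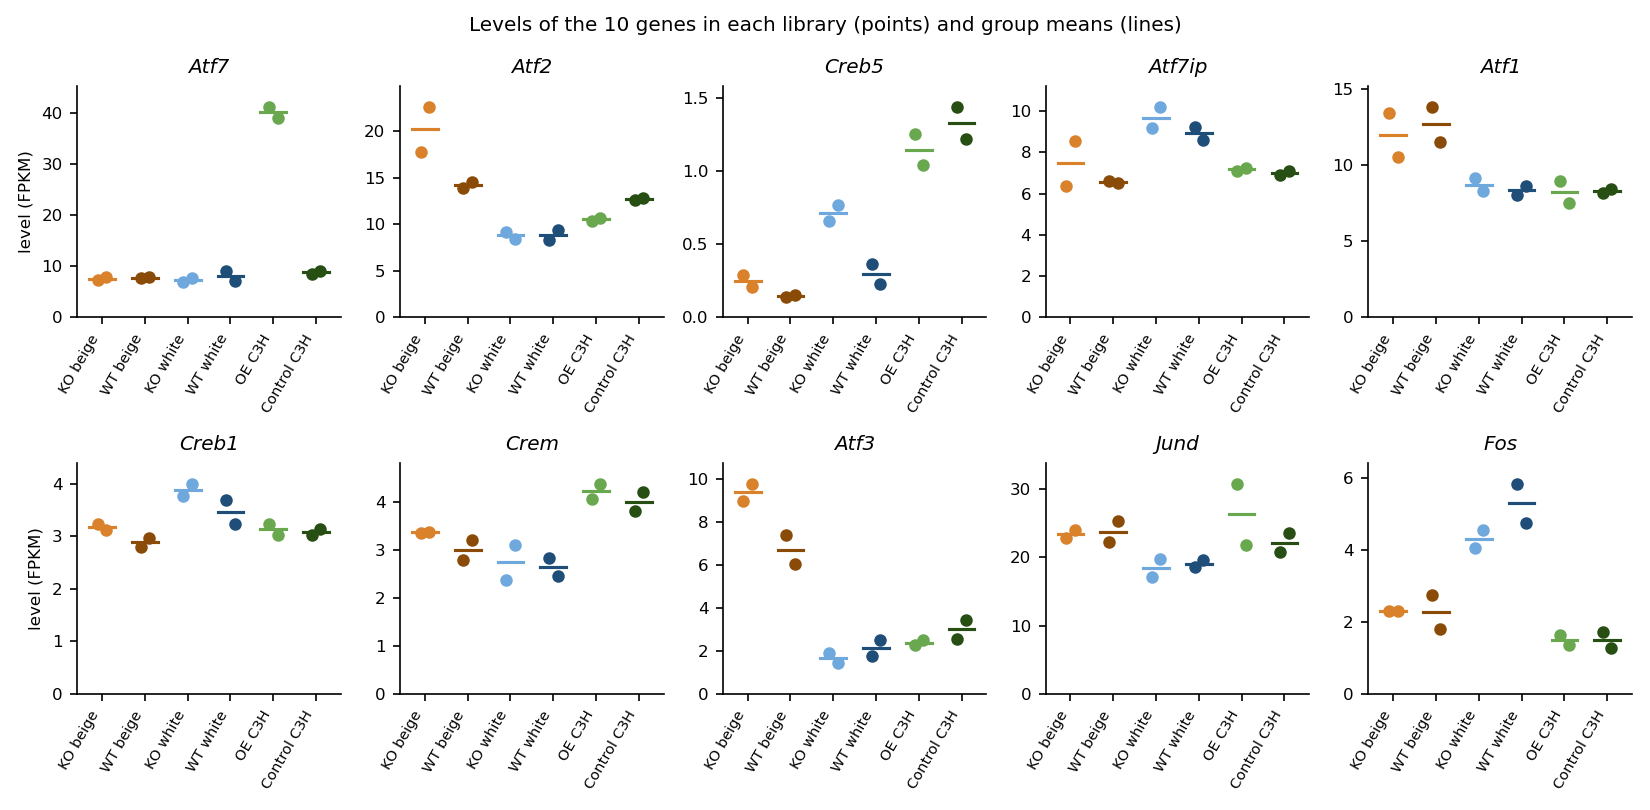
Level in FPKM (y axis, linear, from 0) of each of the 10 genes in the 6 groups; each point is 1 library and each line the mean of 2. Atf7 stood at 41.2 and 39.1 FPKM in overexpressing C3H10T1/2 libraries and between 6.88 and 9.10 FPKM in the other 10, while Atf2 and Atf3 were highest in KO-labelled beige libraries.

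Atf7 (chromosome 15, 102525946 to 102625464, mm10, minus strand), the targeted gene, had overlapping levels in KO-labelled and WT libraries. KO-labelled beige libraries had 7.26 and 7.94 FPKM, against 7.80 and 7.83 FPKM in WT beige (log2 fold change −0.04, SE 0.12, adjusted p = 0.949). The 95% interval of this log2 difference was −0.31 to 0.24. KO-labelled white libraries had 6.88 and 7.73 FPKM, against 9.10 and 7.10 FPKM in WT white (log2 fold change −0.13, SE 0.12, adjusted p = 0.604; interval −0.40 to 0.15). Its RNA was thus not lost from the libraries labelled KO, by this measure. A single FPKM per gene does not show which exons the reads came from, and the directions given below for these libraries rest on their labels.

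Overexpression was plain in the same measure. Atf7 had 41.2 and 39.1 FPKM in overexpressing C3H10T1/2 libraries, against 8.52 and 9.09 FPKM in control ones (log2 fold change 2.07, SE 0.07, adjusted p = 0.000162). It was 1 of 10 genes of the family called there, where 1.49% of all 9981 genes tested were called (0.431% higher, 1.06% lower). No difference of Atf7 with rosiglitazone was called: the log2 difference of beige over white was 0.05 in KO-labelled and −0.04 in WT cultures (adjusted p = 0.733 and 0.821). Ordered by mean FPKM, Atf7 was highest in overexpressing C3H10T1/2, followed by control C3H10T1/2, WT white, WT beige, KO-labelled beige and KO-labelled white. Apart from the overexpressing group, each neighbour in this order overlapped the next. In GENCODE a protein-coding read-through model, Gm28047, overlaps Atf7 on the same strand, and its reads could be counted as Atf7.

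Atf2 (chromosome 2, 73816509 to 73892639) was the most abundant of the subfamily in every primary beige library and higher in beige than in white cultures. KO-labelled beige libraries had 17.8 and 22.6 FPKM, against 9.16 and 8.43 FPKM in KO-labelled white (log2 fold change 1.104, SE 0.12, adjusted p = 7.48e-05). WT beige libraries had 13.9 and 14.6 FPKM, against 8.29 and 9.38 FPKM in WT white (log2 fold change 0.63, SE 0.12, adjusted p = 0.00259). Both beige groups lay wholly above both white groups. In beige cultures the KO-labelled libraries also stood above WT without overlap, but the difference was not called (log2 fold change 0.47, SE 0.12, adjusted p = 0.291). Its 95% interval was 0.18 to 0.75 and its unadjusted p was 0.00494, and KO-labelled replicate 2 was the higher library. The genotypes overlapped in white cultures (log2 difference −0.0039, adjusted p = 0.992). The difference between these 2 genotype effects was 0.47 on the log2 scale and was not called (SE 0.18, adjusted p = 0.239).

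With ATF7 overexpressed, Atf2 was at 10.3 and 10.7 FPKM, against 12.6 and 12.8 FPKM in control C3H10T1/2. The groups did not overlap, yet the log2 difference of −0.25 (95% interval −0.41 to −0.09) was not called over all genes (adjusted p = 0.134). Only the 2 white groups overlapped among neighbours in the order of Atf2 levels, which ran from KO-labelled beige through WT beige, control C3H10T1/2 and overexpressing C3H10T1/2 to WT white and KO-labelled white.

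Creb5 (chromosome 6, 53573374 to 53695832) was the rarest of the 10 genes and had its own pattern. Overexpressing C3H10T1/2 libraries had 1.25 and 1.04 FPKM, against 1.44 and 1.22 FPKM in control ones, which overlapped (log2 fold change −0.12, SE 0.11, adjusted p = 0.656). In primary cultures it stood at 0.291 and 0.205 FPKM in KO-labelled beige, 0.139 and 0.155 in WT beige, 0.662 and 0.767 in KO-labelled white and 0.364 and 0.227 FPKM in WT white libraries. No primary library reached 1 FPKM, so Creb5 did not enter the fit of the 8 primary libraries. The KO-labelled white libraries were above both WT white libraries, and the call on this difference depended on the fit. In a fit of all 12 libraries, where Creb5 passed the filter, the log2 difference was 0.41 (SE 0.10, adjusted p = 0.0458). Without a filter on low values, in the 8 primary libraries, it was 0.41 (SE 0.07, adjusted p = 0.0629). With small RNA genes left out it was 0.53 (adjusted p = 0.0808). The same 3 fits gave Creb5 as lower in KO-labelled beige than in KO-labelled white, at −0.46 in the fit of all 12 libraries, −0.46 without a filter and −0.65 with small RNA genes left out (adjusted p = 0.00231, 0.0019 and 0.00292). In WT beige over white these differences were −0.17, −0.17 and −0.27, and none was called (adjusted p = 0.162, 0.0925 and 0.124). In the fit of all 12 libraries Creb5 met the filter only through C3H10T1/2, at 1.04 to 1.44 FPKM. With small RNA genes left out, the rescaled values met it only through KO-labelled white libraries, the group where Creb5 was then called higher. The call in that setting is thus no support separate from the filter. Macrophage markers moved with the genotype difference in white cultures: 5 of 10 were called higher and 0 lower in KO-labelled white. Over all 11294 genes tested, 1.27% were called higher and 0.620% lower there. The summed levels of the macrophage markers were 680.0 to 734 FPKM in KO-labelled white and 492 to 525 FPKM in WT white libraries. The part of these markers in the Creb5 difference was not tested.

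The summed level of Atf7, Atf2 and Creb5 shows how the make-up of the subfamily differed between cultures. The sum was 25.3 and 30.7 FPKM in KO-labelled beige, 21.8 and 22.5 in WT beige, 16.7 and 16.9 in KO-labelled white and 17.8 and 16.7 FPKM in WT white libraries. Atf7 made up 28.7% and 25.8% of this sum in KO-labelled beige, 35.8% and 34.7% in WT beige, 41.2% and 45.6% in KO-labelled white and 51.3% and 42.5% in WT white libraries. Its share was thus lower in every beige library than in every white one, while its own level was not. Overexpression turned the proportions round: Atf7 was 78.1% and 76.9% of 52.8 and 50.8 FPKM in overexpressing libraries, against 37.7% and 39.4% of 22.6 and 23.1 FPKM in control C3H10T1/2.

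**Figure D2:**
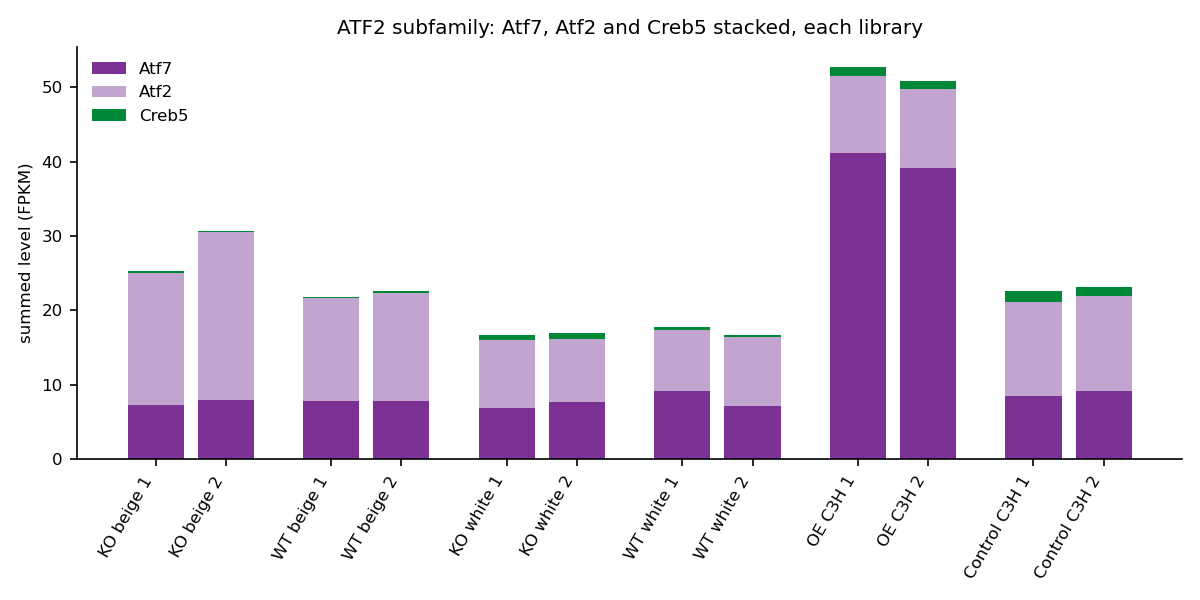
Summed level in FPKM (y axis, linear, from 0) of Atf7, Atf2 and Creb5, stacked, for each of the 12 libraries. The overexpressing C3H10T1/2 libraries reached 52.8 and 50.8 FPKM, most of it Atf7, and Atf2 was the larger part in all beige libraries of primary cells.

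Between genotypes, 0 of the 9 family genes tested were called in either culture. In beige, 0.151% of all 11294 genes tested were called (17 genes, 0.0531% higher and 0.0974% lower, with 1160 at an unadjusted p under 0.05). In white it was 1.89% (213 genes, 1.27% higher and 0.620% lower, with 2246 unadjusted). For the interaction of genotype and rosiglitazone it was 0 of 9, beside 0.292% of all genes (33 genes, 0.106% higher and 0.186% lower, with 1900 unadjusted). The median log2 difference of the 9 genes was 0.10 in KO-labelled over WT beige, beside 0.04 over all genes, and −0.0039 in KO-labelled over WT white, beside 0.03. Among the members not described further for genotype, the log2 differences in beige and in white were −0.08 and 0.05 for Atf1, 0.10 and 0.13 for Creb1, 0.13 and 0.03 for Crem, and −0.02 and −0.05 for Jund.

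**Figure D3:**
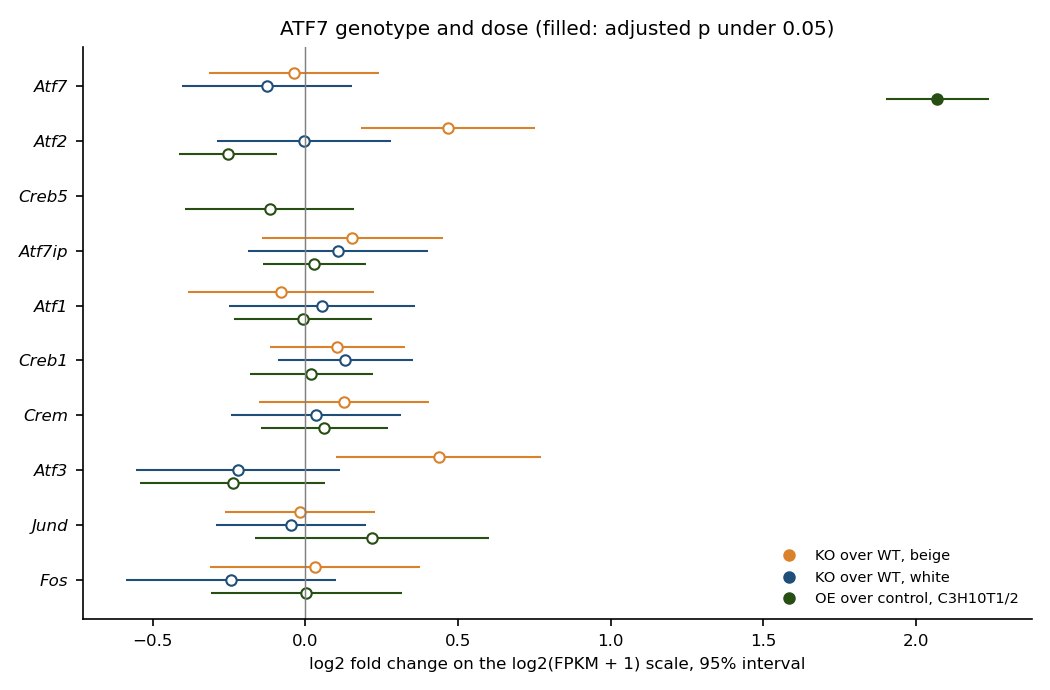
Log2 fold change on the log2(FPKM + 1) scale (x axis) with its 95% interval for KO-labelled over WT cultures, beige and white, and for overexpressing over control C3H10T1/2; filled points have an adjusted p under 0.05. Atf7 under overexpression, at 2.07, is the filled point, and the intervals of Atf2 and Atf3 in beige lie above 0 although neither was called.

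In rosiglitazone cultures the family divided, with 4 of 9 tested genes higher and 2 lower than in white cultures, for both genotypes. Over all 11294 genes, 61.0% were called in KO-labelled cultures (26.6% higher, 34.3% lower) and 53.7% in WT cultures (21.6% higher, 32.1% lower). The share of the family that was called, 66.7%, was close to these backgrounds. The same 6 genes were called in both: Atf3, Atf2, Atf1 and Jund were higher, Fos and Atf7ip lower. The median of all genes was −0.06 in KO-labelled and −0.10 in WT cultures on the log2 scale; relative to it, Atf3 was at 2.02 and 1.40, and Atf2 at 1.17 and 0.73. Cell make-up moved with this contrast: all 10 macrophage markers and all 6 preadipocyte and stromal markers tested were lower in beige, in both genotypes. Adipocyte markers went the other way: of 6 tested, 6 were called higher in KO-labelled and 5 in WT cultures, and 0 lower. The adipocyte sum was 9965 to 11011 FPKM in KO-labelled beige and 10062 to 10677 in WT beige. It was 2549.6 to 2613 in KO-labelled white and 3258 to 3826 FPKM in WT white libraries. The macrophage sum was 28.4 to 37.2 FPKM in KO-labelled beige and 27.6 to 31.4 in WT beige, against 680.0 to 734 in KO-labelled white and 492 to 525 FPKM in WT white libraries. The stromal sum of 7 markers was 123 to 128 and 106 to 114 FPKM in KO-labelled and WT beige, against 613 to 666 and 467 to 530.3 FPKM in KO-labelled and WT white libraries. Their part in the family's differences was not tested, and in bulk RNA fewer cells of a type and less RNA per cell cannot be told apart.

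**Figure D4:**
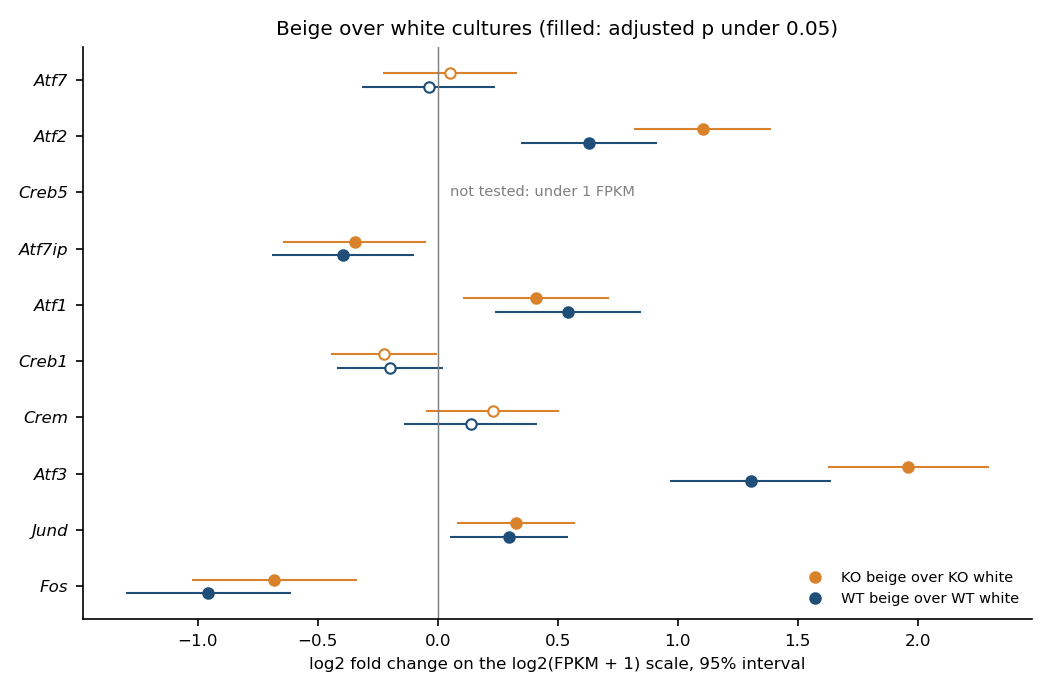
Log2 fold change of beige over white cultures on the log2(FPKM + 1) scale (x axis) with its 95% interval, for KO-labelled and WT cultures; filled points have an adjusted p under 0.05. Atf3 and Atf2 lie farthest to the right, Fos farthest to the left, and Atf7 beside 0; Creb5 was not tested.

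Atf7ip (chromosome 6, 136518851 to 136607379), which stabilises SETDB1 in the nucleus, was lower in beige cultures. KO-labelled beige libraries had 6.37 and 8.58 FPKM, against 9.19 and 10.2 FPKM in KO-labelled white (log2 fold change −0.35, SE 0.13, adjusted p = 0.0447). WT beige libraries had 6.61 and 6.50 FPKM, against 9.25 and 8.60 FPKM in WT white (log2 fold change −0.39, SE 0.13, adjusted p = 0.0309). The groups did not overlap, but both calls sat near the threshold and were lost, for example, with median centring (adjusted p = 0.0611 and 0.0532). The WT call was also lost without any 1 of the 4 WT libraries (adjusted p from 0.0607 to 0.12), and the KO-labelled call was kept only without KO-labelled beige replicate 2 when a library was left out (adjusted p from 0.0545 to 0.249 without the others). No genotype difference of Atf7ip was called: log2 differences of KO-labelled over WT were 0.15 in beige and 0.11 in white cultures (adjusted p = 0.733 and 0.687). In C3H10T1/2 it had 7.11 and 7.26 FPKM with ATF7 overexpressed and 6.91 and 7.13 FPKM in the control (0.03, adjusted p = 0.872).

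None of the partners of ATF7IP and SETDB1 was called higher in beige. Of 10 tested, 4 were lower in KO-labelled beige over white, beside 34.3% of all genes (list median −0.22, all genes −0.06), and 7 were lower in WT beige over white, beside 32.1% of all genes (list median −0.35, all genes −0.10). Trim28, the corepressor KAP1 that brings SETDB1 to zinc finger proteins, was at 13.8 and 14.9 FPKM in KO-labelled beige, against 22.95 and 22.8 FPKM in KO-labelled white (log2 fold change −0.64, SE 0.10, adjusted p = 0.00053). WT beige libraries had Trim28 at 14.6 and 14.1 FPKM, against 22.7 and 26.1 in WT white (log2 fold change −0.73, SE 0.10, adjusted p = 0.000314). Setdb1 itself fell to 2.53 and 2.51 FPKM in KO-labelled beige, against 4.37 and 3.68 FPKM in KO-labelled white (log2 fold change −0.51, SE 0.11, adjusted p = 0.00288). It was likewise lower in WT beige, with 2.49 and 2.50 FPKM, against 3.97 and 3.46 FPKM in WT white (log2 fold change −0.43, SE 0.11, adjusted p = 0.00831). Ehmt2, the H3K9 methyltransferase G9a, was called in KO-labelled cultures (log2 fold change −0.69, SE 0.10, adjusted p = 0.000372). Mphosph8, of the HUSH silencing complex, was called in WT cultures (log2 fold change −0.45, SE 0.10, adjusted p = 0.00585). Each is named for 1 genotype by the rule of lowest adjusted p. Ehmt2 had 14.8 and 14.4 FPKM in WT beige, against 18.6 and 19.8 FPKM in WT white. Mphosph8 had 2.31 and 2.30 FPKM in KO-labelled beige, against 2.49 and 2.54 FPKM in KO-labelled white. The interaction of genotype and rosiglitazone was called for 0 of the 10 partners. The WT count of lower genes was 3 with quantile normalization, 5 when libraries were centred on their medians and 9 with small RNA genes removed, and the KO-labelled count 4, 4 and 7. No partner was called between genotypes or with ATF7 overexpressed.

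Creb1 (chromosome 1, 64532804 to 64604548), the cAMP-activated founding member of its subfamily, was low in every library. It had 3.24 and 3.12 FPKM in KO-labelled beige, 2.80 and 2.97 in WT beige, 3.76 and 4.001 in KO-labelled white, 3.70 and 3.23 in WT white, 3.23 and 3.03 in overexpressing C3H10T1/2 and 3.02 and 3.13 FPKM in control C3H10T1/2. Beige libraries of either genotype lay below the white libraries of that genotype, but the log2 differences of −0.23 in KO-labelled and −0.20 in WT cultures were not called (adjusted p = 0.0724 and 0.116). With small RNA genes left out they were called, at −0.43 and −0.35 (adjusted p = 0.00963 and 0.0288). In the fit of all 12 libraries the KO-labelled difference of −0.23 was called too (adjusted p = 0.0367). With ATF7 overexpressed the log2 difference of Creb1 was 0.02, and that of Crem 0.06 (adjusted p = 0.931 and 0.765).

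Atf1 (chromosome 15, 100227859 to 100261248), which dimerises with CREB1, was the most abundant of the subfamily in each library. KO-labelled beige libraries had 13.4 and 10.5 FPKM, against 9.11 and 8.28 FPKM in KO-labelled white (log2 fold change 0.41, SE 0.13, adjusted p = 0.0254). WT beige libraries had 13.8 and 11.5 FPKM, against 8.06 and 8.60 FPKM in WT white (log2 fold change 0.54, SE 0.13, adjusted p = 0.00806). All 4 beige libraries exceeded all 4 white ones, while KO-labelled and WT overlapped in both cultures. Without WT beige replicate 1 the WT difference was 0.42 (adjusted p = 0.0687), and the KO-labelled call was lost without KO-labelled beige replicate 1, white replicate 1 or white replicate 2 (adjusted p = 0.147, 0.0531 and 0.134). With small RNA genes left out the KO-labelled difference was 0.20 (adjusted p = 0.254). In C3H10T1/2 the overexpressing libraries had 8.94 and 7.52 FPKM and the control libraries 8.12 and 8.40 FPKM, a log2 difference of −0.01.

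Crem (chromosome 18), which encodes both activators and cAMP-induced repressors, was highest in C3H10T1/2. Overexpressing libraries had 4.05 and 4.37 FPKM and control libraries 3.80 and 4.19 FPKM, all above the primary cultures. Those had 3.35 and 3.37 FPKM in KO-labelled beige, 2.79 and 3.20 in WT beige, 2.37 and 3.10 in KO-labelled white and 2.82 and 2.45 FPKM in WT white. No difference of genotype, of beige over white or of ATF7 overexpression was called for Crem. Quantile normalization alone turned the beige over white differences into calls, at 0.46 in KO-labelled and 0.34 in WT cultures (adjusted p = 0.0132 and 0.0496). An opposite-strand gene, Gm6225, overlaps Crem, and the strand setting of the authors' counting is not given in the sources used here, so the reads of the 2 genes may be mixed.

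Genes that carry the cAMP signal to CREB were divided between directions. Of 16 tested, 5 were higher and 7 lower in KO-labelled beige over white, and 6 were higher and 6 lower in WT. With small RNA genes left out these counts were 4 higher and 10 lower, and 5 higher and 8 lower; centred on medians the WT count was 6 higher and 3 lower. In all, 12 of 16 were called in either genotype, beside 61.0% of all genes in KO-labelled and 53.7% in WT cultures. Prkar2b, the regulatory subunit of protein kinase A that fat cells use most, was at 135 and 170.2 FPKM in KO-labelled beige, against 34.9 and 33.9 FPKM in KO-labelled white (log2 fold change 2.11, SE 0.12, adjusted p = 1.55e-06). It was at 123 and 127 FPKM in WT beige, against 48.8 and 49.5 in WT white (log2 fold change 1.33, SE 0.12, adjusted p = 2.83e-05). Higher as well in both genotypes were Rps6ka5, the kinase MSK1 that phosphorylates CREB1 and ATF1 (log2 fold change 0.94 in KO-labelled, 0.95 in WT), and Sik2, which phosphorylates the CREB coactivators CRTC (0.67 and 0.80). Crtc3, one of those coactivators, was lower in WT beige, with 2.75 and 2.18 FPKM, against 4.65 and 3.97 FPKM in WT white (log2 fold change −0.62, SE 0.12, adjusted p = 0.00291). With ATF7 overexpressed 0 of the 16 were called. Between genotypes it was also 0 of 16, but Prkar2b was called lower in KO-labelled than in WT white cultures with quantile normalization, median centring and small RNA genes left out, at −0.53, −0.52 and −0.49 on the log2 scale (adjusted p = 0.0243, 0.0429 and 0.0423); on the deposited scale it was at −0.50 and not called (adjusted p = 0.0788).

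Genes known to respond to cAMP and CREB did not move one way either. Of 12 tested, 4 were higher and 5 lower in KO-labelled beige over white, and 6 were higher and 5 lower in WT. Over all genes, 26.6% were higher and 34.3% lower in KO-labelled cultures, and 21.6% and 32.1% in WT. With small RNA genes left out the WT count was 4 higher and 5 lower. Pck1, an enzyme of glyceroneogenesis, and Ppargc1a, the thermogenic coactivator PGC-1α, were higher. Pck1 had 28.6 and 43.7 FPKM in KO-labelled beige, against 1.70 and 1.99 FPKM in KO-labelled white (log2 fold change 3.68, SE 0.18, adjusted p = 7.86e-07), and its WT log2 difference was 2.54. Ppargc1a had 6.07 and 6.37 FPKM in WT beige, against 1.17 and 1.38 FPKM in WT white (log2 fold change 1.67, SE 0.13, adjusted p = 1.2e-05). The nuclear receptor Nr4a1 was lower, with 0.810 and 0.649 FPKM in KO-labelled beige, against 4.798 and 5.18 FPKM in KO-labelled white (log2 fold change −1.79, SE 0.12, adjusted p = 3.75e-06).

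Apart from Prkar2b under other scalings, Pck1 was the 1 gene of these pathway lists called between genotypes. KO-labelled white libraries had 1.70 and 1.99 FPKM, against 4.30 and 5.33 FPKM in WT white (log2 fold change −1.03, SE 0.18, adjusted p = 0.0339). In beige the values overlapped, with 28.6 and 43.7 FPKM in KO-labelled and 33.2 and 32.2 FPKM in WT libraries. It was also lower with ATF7 overexpressed, at 71.6 and 74.1 FPKM, against 111 and 99.6 FPKM in control C3H10T1/2 (log2 fold change −0.52, SE 0.08, adjusted p = 0.0338), but with quantile normalization 0 of these cAMP-responsive genes were called there. The adipocyte markers were lower in sum in KO-labelled white, at 2549.6 to 2613 FPKM, than in WT white libraries, at 3258 to 3826 FPKM, and 1 of the 6 was called lower there, the lipid droplet gene Cidec, which is named after its values were seen. Over all genes, 0.620% were called lower in that comparison. The part of the adipocyte markers in the Pck1 difference was not tested.

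Atf3 (chromosome 1, 191170297 to 191183333), a stress-induced bZIP repressor, had the largest beige over white difference among the 9 family genes tested, in both genotypes. In KO-labelled beige libraries it stood at 8.99 and 9.79 FPKM, against 1.89 and 1.46 FPKM in KO-labelled white (log2 fold change 1.96, SE 0.15, adjusted p = 6.41e-06). In WT beige it stood at 7.38 and 6.02 FPKM, against 1.76 and 2.49 FPKM in WT white (log2 fold change 1.30, SE 0.15, adjusted p = 9.92e-05). Every beige library was above every white one, and the KO-labelled beige libraries were above the WT beige ones. That genotype difference was not called (log2 fold change 0.44, SE 0.15, adjusted p = 0.38). The direction was the other between white cultures, whose values overlapped (−0.22, adjusted p = 0.436). The interaction of 0.66 was not called (SE 0.21, adjusted p = 0.204). In C3H10T1/2 Atf3 had 2.28 and 2.49 FPKM with ATF7 overexpressed, against 2.58 and 3.45 FPKM in the control, and the log2 difference was −0.24 (adjusted p = 0.398).

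Jund (chromosome 8, 70697739 to 70700616), a JUN partner for ATF and FOS proteins, was the most abundant of the 10 genes in all 10 libraries without overexpressed ATF7 and differed little. Its level was 22.8 and 23.97 FPKM in KO-labelled beige, against 17.2 and 19.8 FPKM in KO-labelled white (log2 fold change 0.33, SE 0.11, adjusted p = 0.027). The WT beige level was 22.2 and 25.3 FPKM, against 18.6 and 19.6 FPKM in WT white (log2 fold change 0.30, SE 0.11, adjusted p = 0.0436). The groups did not overlap, but the calls were lost in a fit of all 12 libraries (adjusted p = 0.0731 and 0.105) and with small RNA genes left out (adjusted p = 0.367 and 0.233). The KO-labelled call was lost without KO-labelled beige replicate 2 or white replicate 1 (adjusted p = 0.0909 and 0.194), and the WT call without any 1 of the WT or the KO-labelled white libraries (adjusted p from 0.0548 to 0.266). An antisense gene, Gm11175, overlaps Jund, and without a stated strand setting their reads cannot be told apart. The overexpressing C3H10T1/2 libraries lay far apart, at 30.8 and 21.8 FPKM, against 20.7 and 23.6 FPKM in the control (log2 fold change 0.22, SE 0.16, adjusted p = 0.534).

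Fos (chromosome 12, 85473901 to 85477270), the classic immediate early gene and JUN partner, ran opposite to Atf3. It had 2.32 and 2.31 FPKM in KO-labelled beige, against 4.07 and 4.55 FPKM in KO-labelled white (log2 fold change −0.68, SE 0.15, adjusted p = 0.00402). In WT beige it had 2.76 and 1.79 FPKM, against 5.85 and 4.76 FPKM in WT white (log2 fold change −0.96, SE 0.15, adjusted p = 0.000735). All 4 white libraries stood above all 4 beige ones, and C3H10T1/2 was lower still than every beige library, with 1.65 and 1.37 FPKM when ATF7 was overexpressed and 1.74 and 1.28 FPKM in the control. Immediate early genes, which also respond to handling of cells, moved in part with Fos. Beside 61.0% of all genes called in KO-labelled and 53.7% in WT cultures, 1 of the 5 tested was higher and 3 lower in beige, in either genotype. Their sum over 6 genes was 33.7 to 41.3 FPKM in KO-labelled beige and 36.6 to 39.4 in WT beige, against 52.8 to 53.6 in KO-labelled white and 46.1 to 55.8 FPKM in WT white libraries, and their part in the Fos difference was not tested. Between genotypes the log2 differences of Fos were 0.03 in beige and −0.24 in white cultures, neither called (adjusted p = 0.967 and 0.402), and with ATF7 overexpressed the difference was 0.0035 (adjusted p = 0.992).

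Other AP-1 and ATF genes also moved in both directions. Of 14 tested, 5 were higher and 4 lower in KO-labelled beige over white, and 6 were higher and 4 lower in WT. Over all genes, 61.0% were called in KO-labelled cultures (26.6% higher, 34.3% lower) and 53.7% in WT (21.6% higher, 32.1% lower). Ddit3, which encodes CHOP, was at 134 and 127 FPKM in KO-labelled beige, against 16.9 and 17.5 FPKM in KO-labelled white (log2 fold change 2.85, SE 0.19, adjusted p = 3.52e-06). WT beige libraries had Ddit3 at 118 and 116 FPKM, against 17.4 and 28.9 in WT white (log2 fold change 2.33, SE 0.19, adjusted p = 1.61e-05). Atf5 of the integrated stress response and Atf6, a sensor of the endoplasmic reticulum, were higher too. Atf5 had 142 and 148 FPKM in WT beige, against 54.2 and 54.7 FPKM in WT white (log2 fold change 1.40, SE 0.11, adjusted p = 1.34e-05), with a KO-labelled log2 difference of 1.33. Atf6 had 15.96 and 18.4 FPKM in KO-labelled beige, against 5.64 and 5.92 FPKM in KO-labelled white (log2 fold change 1.42, SE 0.10, adjusted p = 4.1e-06), with a WT log2 difference of 1.15. Creb3l1, a membrane-anchored factor of collagen-secreting cells, was lower, with 4.35 and 4.89 FPKM in KO-labelled beige, against 12.7 and 11.9 FPKM in KO-labelled white (log2 fold change −1.24, SE 0.10, adjusted p = 1.08e-05), and a WT log2 difference of −1.33. Fosl1, an AP-1 partner of JUN proteins named after its values were seen, had 9.86 and 7.55 FPKM in WT beige libraries, against 0.593 FPKM and a listed 0 in WT white (log2 fold change 2.93, SE 0.37, adjusted p = 0.000202). It had 7.41 and 2.59 FPKM in KO-labelled beige, against 1.89 and 2.84 FPKM in KO-labelled white, which was not called (log2 fold change 0.72, adjusted p = 0.123). The interaction of genotype and rosiglitazone was called for 0 of the 14 genes of this list, so no difference between the genotypes in this step is shown. With small RNA genes left out, the KO-labelled count was 4 higher and 6 lower. No gene of this list was called between genotypes.

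With ATF7 overexpressed, Ddit3 was the 1 of 13 tested genes of that list called. It had 12.9 and 15.2 FPKM in overexpressing libraries, against 24.7 and 23.2 FPKM in control C3H10T1/2 (log2 fold change −0.73, SE 0.09, adjusted p = 0.0256), and with quantile normalization 0 genes of the list were called. Of 5 beige and brown markers tested there, 0 were higher and 4 lower. Over all 9981 genes tested, 0.431% were called higher and 1.06% lower with ATF7 overexpressed. The 6 beige and brown markers had summed levels of 575 to 732 FPKM in overexpressing and 989.5 to 1045 FPKM in control libraries. Ppargc1a, the marker not tested, ran the other way at a low level, with 0.303 and 0.297 FPKM in overexpressing and 0.167 and 0.204 FPKM in control libraries. The 6 adipocyte markers had sums of 11335 to 12353 FPKM and 11572 to 11774 FPKM in overexpressing and control libraries, with 0 called, and the 10 macrophage markers summed to at most 2.27 FPKM.

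**Figure D5:**
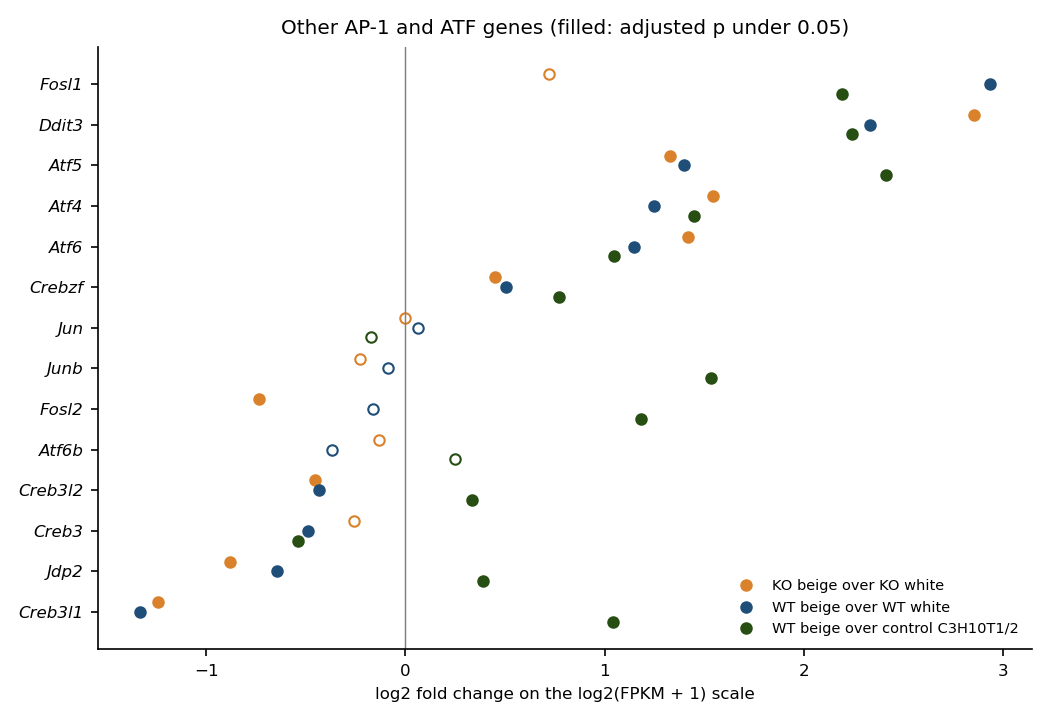
Log2 fold change on the log2(FPKM + 1) scale (x axis) of 14 other AP-1 and ATF genes for KO-labelled beige over white, WT beige over white, and WT beige over control C3H10T1/2 cultures; filled points have an adjusted p under 0.05. Ddit3, Atf5, Atf4 and Atf6 lie right of 0 in all 3 comparisons, and Creb3l1 lies left of 0 against white cultures and right of it against C3H10T1/2.

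The kinases and phosphatases that set the activity of ATF2, ATF7 and JUN had 7 genes higher and 4 lower of 15 tested in KO-labelled beige over white, and 6 higher and 3 lower in WT. The shares called, 11 and 9 of 15, stood beside 61.0% and 53.7% of all genes, and with small RNA genes left out the KO-labelled count was 4 higher and 5 lower. Dusp8 and Dusp10, phosphatases that switch off JNK and p38, were higher. Dusp10 had 15.04 and 11.97 FPKM in KO-labelled beige, against 5.82 and 7.32 FPKM in KO-labelled white (log2 fold change 0.94, SE 0.13, adjusted p = 0.000323), and 16.4 and 14.96 FPKM in WT beige, against 5.70 and 5.88 FPKM in WT white (log2 fold change 1.29, SE 0.13, adjusted p = 6.26e-05). Dusp8 had 2.75 and 2.71 FPKM in KO-labelled beige, against 0.346 and 0.221 FPKM in KO-labelled white (log2 fold change 1.54, SE 0.11, adjusted p = 3.76e-06). Map2k6, an activator of p38, was lower: it had 0.259 and 0.232 FPKM in KO-labelled beige, against 2.01 and 2.72 FPKM in KO-labelled white (log2 fold change −1.43, SE 0.13, adjusted p = 1.69e-05), and a WT log2 difference of −0.98. Mapk11, the p38β kinase, was lower in WT beige, at 0.276 and 0.209 FPKM, against 1.18 and 1.26 FPKM in WT white (log2 fold change −0.84, SE 0.12, adjusted p = 0.000412). KO-labelled beige had it at 0.542 and 0.651 FPKM, against 1.01 and 1.37 FPKM in KO-labelled white. Dusp8 in white and Map2k6 and Mapk11 in beige stood under 1 FPKM in every primary library. These 3 genes met the filter only through the side where they were higher, so their calls are no support separate from the filter. No gene of this list was called between genotypes or with ATF7 overexpressed.

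Both WT beige and control C3H10T1/2 cultures were treated with rosiglitazone, but cell source, strain and culture cannot be told apart between them. The comparison shares the WT beige libraries with that of beige over white and the control libraries with that of overexpression. In the fit of all 12 libraries 4 of the 10 family genes were called, beside 56.4% of all 11601 genes (25.3% higher, 31.1% lower). Atf3 had 7.38 and 6.02 FPKM in WT beige, against 2.58 and 3.45 FPKM in control C3H10T1/2 (log2 fold change 0.94, SE 0.15, adjusted p = 0.000404). Atf1 was the other gene higher in WT beige (log2 fold change 0.55, SE 0.13, adjusted p = 0.00385). Creb5 was lower, at 0.139 and 0.155 FPKM in WT beige, against 1.44 and 1.22 FPKM in control C3H10T1/2 (log2 fold change −1.02, SE 0.10, adjusted p = 1.2e-05). With a pseudocount of 0.1 in place of 1 the difference of Creb5 was −2.53. Creb5, counted among the 4 genes called, met the filter of 1 FPKM only through C3H10T1/2 libraries, the higher side of this comparison. Without a filter on low values its difference was also −1.02 (limma, adjusted p = 2.2e-05). Crem was lower by a smaller step (log2 fold change −0.32, SE 0.11, adjusted p = 0.0295), and Crem lost its call without WT beige replicate 1, control replicate 1 or control replicate 2 (adjusted p = 0.169, 0.0525 and 0.153), and with no filter on low values, quantile normalization or median centring (0.0503, 0.0503 and 0.0745). The log2 differences of Atf7 and Atf2 were −0.15 and 0.15, with adjusted p of 0.251 and 0.262. Fos, at 0.38, was not called (adjusted p = 0.0575); it was called with median centring (adjusted p = 0.0323), without WT beige replicate 2 (0.0114) and without control replicate 1 (0.0455). Jund (0.10), Creb1 (−0.07) and Atf7ip (−0.09) were not called.

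The other AP-1 and ATF genes were mostly higher in WT beige than in control C3H10T1/2: of 14 tested, 11 were higher and 1 lower (list median 1.05, all genes −0.06). Over all genes 56.4% were called in this comparison, 25.3% higher and 31.1% lower, and these shares also stand beside the other list and marker counts below. Atf4, the main effector of the integrated stress response, had 133 and 133 FPKM in WT beige, against 49.3 and 47.02 FPKM in control C3H10T1/2 (log2 fold change 1.45, SE 0.12, adjusted p = 3.89e-06). Atf5 had 142 and 148 FPKM in WT beige, against 25.9 and 27.2 FPKM in control C3H10T1/2 (log2 fold change 2.41, SE 0.10, adjusted p = 2.52e-08). Of the 10 ATF7IP and SETDB1 partners 0 were higher and 5 lower, among them Ehmt2 (log2 fold change −0.45, SE 0.08, adjusted p = 0.00107). The stress kinases and phosphatases had 4 of 15 higher and 7 lower, the cAMP signalling genes 1 of 16 higher and 4 lower, and the cAMP-responsive genes 4 of 12 higher and 3 lower. The cAMP signalling counts were 4 higher and 4 lower with quantile normalization, 4 and 3 with median centring, and 3 and 4 with small RNA genes left out. Macrophage markers moved with this contrast too, with 9 of 10 called higher, and summed to 27.6 to 31.4 FPKM in WT beige, against 1.68 to 2.21 FPKM in control C3H10T1/2 libraries, where 3 of the 10, among them Ctss and C1qb, were listed at 0. Of 5 immediate early genes tested, 3 were higher and 1 lower. Their part in the family's differences was not tested.

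The genes whose levels ran most like those of the family were found by Pearson's r of log2(FPKM + 1), as a description, among genes that ranged over at least 1 log2 unit. Points share a library and fall into few groups, so a high r says little more than that group levels run alike. Over the 12 libraries Atf7 was closest to Stard4 (r = 0.890), Fads1 (0.873) and Abca8b (0.872), and this rests on the 2 overexpressing libraries. In the 8 primary libraries, where Atf7 ranged over only 0.358 log2 units, its highest r was 0.690, with Pigb. Atf2 ran closest to Prkci (0.974), Isoc1 (0.970) and Abcc4 (0.968) over 12 libraries and to Cox20 over the 8 primary ones (0.994). Atf3 ran closest to Mreg (0.986), Mbnl3 (0.983) and Psmd8 (0.983) over 12 libraries and to Ndufs4 over the 8 primary ones (0.996). Fos ran closest to Olfm1 (0.975), Col8a1 (0.974) and Serpina3c (0.973), with Atl2 in first place over the 8 primary libraries (0.974). Crem ran closest to Efcab14 (0.940), Lctl (0.939) and Dot1l (0.934), with Rmnd1 in first place over the 8 primary libraries (0.880).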

How the data were processed

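RNA sequencing values of 12 libraries were used, in 6 groups of 2 that follow their labels. The labels' protocols state that 50 ng of total RNA per library was depleted of ribosomal RNA, made into directional libraries and read for 36 bases from both ends. FPKM values per gene were made and deposited by the authors, on mm10 (GRCm38) per the submitters' processing notes; aligner, quantifier, annotation and strand setting were not given in the sources used here. Small RNA genes held 23.8% to 31.5% of a library's FPKM, and depth is unknown. Because FPKM are not counts, log2(FPKM + 1) was tested with limma 3.58.1 (R 4.3.3, eBayes with a trend, two-sided) in each gene that reached 1 FPKM in 2 or more libraries of its fit, with Benjamini-Hochberg adjustment over all genes tested. The 8 primary libraries were fitted together (4 residual degrees of freedom), the 4 C3H10T1/2 libraries on their own (2), and all 12 together for WT beige against control C3H10T1/2 (6). The test was checked on simulated data. The 10 genes, the pathway and marker lists, and the rule to name at most 4 members of a list per comparison by lowest adjusted p were chosen with earlier results of these data known. Fosb, Dusp1, Sik1 and other genes stand in more than 1 list. Alternatives were other pseudocounts, filters, scalings and sets of libraries, a replicate block, summed loci, and each library left out in turn.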

Additional observations from a re-analysis of the deposited data

How the results depend on the processing

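Genes of the family called: 0 of 9, or of 10 where Creb5 was tested, in every alternative run for KO-labelled over WT beige and for the interaction, and 1 of 10 (Atf7) in all 13 settings for ATF7 overexpression. KO-labelled over WT white gave 1, Creb5, in the fit of all 12 libraries. Leaving out each library gave 3 to 5 for KO-labelled beige over white (3 without KO-labelled white replicate 1) and 3 to 6 for WT beige over white (3 without WT beige replicate 1), and the other settings 5 to 7 and 4 to 7. Atf2, Atf3 and Fos were called in all 17 settings of both beige over white comparisons, Atf1 in 13 (KO-labelled) and 16 (WT), Jund in 12 and 8, Atf7ip in 8 and 11. Crem in WT beige over control C3H10T1/2 was called in 15 of 21, and the family there had 3 to 5 calls with or without a library left out. Uncalled log2 differences that changed sign were, with quantile normalization, Crem in KO-labelled over WT white (−0.020), Atf7 in WT beige over white (0.0060), Jund in the interaction (−0.048) and Atf1 in ATF7 overexpression (0.017). Others were, with median centring, Fos in KO-labelled over WT beige (−0.0078), Atf7 in WT beige over white (0.059) and Atf1 in ATF7 overexpression (0.012). Again others were, with small RNA genes left out, Fos in KO-labelled over WT beige (−0.0028), Atf2 in KO-labelled over WT white (0.012), Atf7 in KO-labelled beige over white (−0.16), Atf7ip in the interaction (−0.016), Jund in the interaction (−0.038) and Atf1 in ATF7 overexpression (0.029). Those that changed sign with a library left out follow with their range over the libraries left out, and with the libraries, by group and replicate number, that turned the sign. In KO-labelled over WT beige they were Atf1 at −0.24 to 0.084 (WT beige 1 and KO-labelled beige 2), Atf7 at −0.093 to 0.020 (KO-labelled beige 1), Atf7ip at −0.035 to 0.34 (KO-labelled beige 2), Fos at −0.18 to 0.25 (WT beige 2) and Jund at −0.11 to 0.071 (WT beige 2 and KO-labelled beige 1). In KO-labelled over WT white they were Atf1 at −0.0077 to 0.12 (KO-labelled white 1), Atf2 at −0.084 to 0.076 (WT white 2 and KO-labelled white 2), Atf7 at −0.28 to 0.034 (WT white 1), Crem at −0.11 to 0.18 (WT white 2 and KO-labelled white 2) and Jund at −0.14 to 0.050 (KO-labelled white 1). In KO-labelled beige over white it was Atf7, at −0.022 to 0.13 (KO-labelled beige 2 and KO-labelled white 1). In WT beige over white it was Atf7, at −0.20 to 0.12 (WT white 1). In the interaction they were Atf1 at −0.30 to 0.030 (KO-labelled beige 2), Atf7 at −0.070 to 0.25 (WT white 1), Atf7ip at −0.14 to 0.24 (KO-labelled beige 2 and KO-labelled white 1), Creb1 at −0.10 to 0.048 (WT beige 2, WT white 2 and KO-labelled white 2), Crem at −0.050 to 0.23 (KO-labelled white 1) and Jund at −0.068 to 0.12 (WT beige 1, KO-labelled beige 2, WT white 2 and KO-labelled white 1). In ATF7 overexpression they were Atf1 at −0.12 to 0.10 (control 2 and overexpressing 2), Creb1 at −0.016 to 0.056 (overexpressing 1), Fos at −0.13 to 0.13 (control 2 and overexpressing 1) and Jund at −0.021 to 0.46 (overexpressing 1). The causes were not tested. Genes called of all tested ranged from 12 to 27 over the other settings, and from 5 to 20 with a library left out, in KO-labelled over WT beige; from 54 to 642 and 23 to 277 in KO-labelled over WT white; from 20 to 116 and 16 to 43 in the interaction; and from 22 to 205 and 17 to 138 with ATF7 overexpressed. With a library left out, the lone replicate is assumed to vary like the other groups. Of the calls in WT beige over white, 40.2% were higher, 50.9% with quantile normalization, 49.98% when centred on medians and 27.4% with small RNA genes removed; in KO-labelled beige over white these were 43.7%, 52.8%, 49.7% and 28.6%. In KO-labelled over WT white they were 67.1%, 50.4%, 56.5% and 61.1%, and with ATF7 overexpressed 28.9%, 32.5%, 32.0% and 44.9%. The median of all genes in WT beige over white was −0.10, 0.02 with quantile normalization and −0.25 with small RNA genes left out. The labels do not say that replicate numbers pair the libraries, and same-numbered libraries deviated together with r from −0.0962 to 0.151. A replicate block gave 27 calls in KO-labelled over WT beige against 17, and 88 with ATF7 overexpressed against 149; of the family it added Fos in WT beige over control C3H10T1/2 (adjusted p = 0.0335). Depth is unknown, and the low level of Creb5 limits what can be said of it.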
